A study of Mus musculus with 16 samples.

Results

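The genes that set the activity of the pyruvate dehydrogenase complex were followed in mouse 3T3-L1 preadipocytes, an established line of fibroblast-like cells used to study how fat cells form. They are the 4 pyruvate dehydrogenase kinase genes Pdk1, Pdk2, Pdk3 and Pdk4, the phosphatase gene Pdp1, and Pdha1 and Pdhb, which encode the alpha and beta subunits of the enzyme that the kinases and the phosphatase act on. Members were all probes whose annotation named exactly 1 of these genes and no other. All 7 genes were found, on 8 of 38467 probes. Pdhb had 2 probes, mMC024740 (probe A) and mMR027792 (probe B), and each of the other 6 genes had 1. These were mMC012593 for Pdk1, mMC018963 for Pdk2, mMC013212 for Pdk3, mMC011321 for Pdk4, mMA033824 for Pdp1 and mMC001976 for Pdha1.

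Treatment was dexamethasone (dex), which activates the glucocorticoid receptor, or its vehicle DMSO, for 2 or 36 h. The groups DMSO 2 h, dex 2 h, DMSO 36 h and dex 36 h held 4 biological replicates each, or 16 arrays in all. Total RNA of each sample, labelled with Cy5, was hybridised against a pool of the samples, labelled with Cy3. The labels name no other agent in the medium and no dose, and all samples come from 1 cell line, so cultures and not animals are the replicates.

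Pyruvate dehydrogenase is the mitochondrial complex that turns pyruvate from glycolysis into acetyl-CoA. The kinases phosphorylate the alpha subunit and switch the complex off, and the phosphatases remove the phosphate and switch it on again. Pdk4 is known for its rise in fasting and under glucocorticoids, when tissues spare glucose and burn fatty acids, and in adipose tissue it is also tied to the making of glycerol from pyruvate. Pdk2 is the widely expressed kinase, Pdk1 and Pdk3 are known targets of the hypoxia factor HIF1, and Pdp1 encodes the calcium-sensitive phosphatase.

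Promoter sequences of 3 members are shown because the kinases Pdk4 and Pdk2 differed in their response to dex and Pdha1 was the subunit gene that changed. RefSeq (GRCm38.p6) gave sequences for 6 of the 7 genes, and each stretch below is the 250 bases before a gene's start, read from 5′ to 3′ on the gene's strand. Capitals mark matches, on either strand, to ACGTG, the core that HIF1 binds. The other motifs searched on both strands were AGAACA, part of the element bound by the glucocorticoid receptor, and GTAAACA, which Foxo factors bind.
Pdk4, chr6:5496279-5496528, minus strand: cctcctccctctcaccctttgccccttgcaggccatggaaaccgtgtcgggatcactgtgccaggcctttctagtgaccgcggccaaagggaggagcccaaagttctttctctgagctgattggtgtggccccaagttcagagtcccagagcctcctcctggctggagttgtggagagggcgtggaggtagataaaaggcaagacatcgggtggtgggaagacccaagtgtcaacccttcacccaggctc
Pdk2, chr11:95041372-95041621, minus strand: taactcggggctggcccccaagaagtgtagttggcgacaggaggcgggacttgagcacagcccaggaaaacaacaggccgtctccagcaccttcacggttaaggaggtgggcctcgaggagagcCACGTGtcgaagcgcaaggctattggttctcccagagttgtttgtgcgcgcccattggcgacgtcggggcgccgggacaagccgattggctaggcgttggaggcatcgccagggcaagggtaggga
Pdha1, chrX:160138431-160138680, minus strand: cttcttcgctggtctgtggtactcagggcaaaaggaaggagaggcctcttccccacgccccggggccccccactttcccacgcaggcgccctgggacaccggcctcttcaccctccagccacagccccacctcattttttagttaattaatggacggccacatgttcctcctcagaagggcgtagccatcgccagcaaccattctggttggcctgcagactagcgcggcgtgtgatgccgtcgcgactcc
In these windows Pdk4 and Pdha1 held 0 matches to any of the 3 motifs. Pdk2 held 2 overlapping matches to ACGTG, 1 on each strand, in the run CACGTG. Of 32851 promoter windows of the same length, 16.1% held AGAACA, 3.17% held GTAAACA and 16.6% held ACGTG. Of the windows not shown, those of Pdk3 and Pdhb each held 1 match to ACGTG, and that of 1 of the 2 start sites of Pdk1 (chr2:71874654-71874903) held 2 matches to AGAACA. The other start sites of Pdk1 and of Pdk2 held 0. ACGTG contains the pair CG, of which all windows held a median of 6. The windows of Pdk2, Pdk3 and Pdhb with ACGTG held 19, 29 and 20 such pairs, and the members' windows without it from 2 to 19. The share of 16.6% is thus not one among windows equally rich in CG. A match here is a run of letters and not a measured binding site. Most windows lack each motif, and 0 matches in 250 bases says nothing of sites outside them.

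The values are log2 ratios of a sample over the pool, so 0 is the pool's level and the ratios of different genes are not levels that can be set against each other. No source used here states the log base. Base 2 was taken because limma, which the design text names, works on that scale, and read as natural logs every difference would be larger by 1 constant factor, so that the change of Pdk4 at 2 h would be 2.49 in place of 1.73. Array medians lay between -0.0106 and 0.00832, and no value of a member was missing. Residual SDs over all probes were 0.168 to 0.435 for the 8 arrays at 2 h and 0.108 to 0.205 for those at 36 h. The lowest mean correlation with the rest of its group, -0.104, belonged to DMSO 2 h replicate 4. A ratio against a pool of the same cells cannot show whether a marker is present, so the labelled cell type was not checked by level. Of 9 measured preadipocyte and fibroblast markers 1 fell at 2 h and 5 fell at 36 h with dex (Pdgfrb, Dlk1, Col1a1, Col1a2 and Col3a1). Col3a1 fell at 36 h on 1 of 2 probes, the other giving -0.23. Of 7 mature adipocyte markers 1, Fabp4, rose at both times. At 36 h 1 of 8 macrophage markers fell (Lyz2, on 1 of 3 probes), and 1 of 6 epithelial and 1 of 7 skeletal muscle markers rose. In limma 0 of 7 endothelial markers passed (2 at an unadjusted p under 0.05 at 2 h and 0 at 36 h). Over all genes, 3.18% passed by at least 1 probe at 2 h (1.97% rose, 1.21% fell). At 36 h 11.7% did (6.75% rose, 4.83% fell). In such bulk samples fewer cells of a type and less RNA per cell cannot be told apart, and the part of these markers in the results below was not tested.

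With dex, 3 of the 7 genes changed at 1 or both times. By time, 2 genes passed at 2 h and 2 at 36 h, where 3.18% and 11.7% of 19640 genes passed by at least 1 probe. Pdk4 was higher at both times, Pdp1 passed as higher at 2 h and did not pass at 36 h, and Pdha1 passed as higher at 36 h and did not pass at 2 h. A probe passed where its limma p, adjusted by Benjamini-Hochberg over the 38467 probes of a comparison, was under 0.05. At 2 h 2 of the 8 probes passed, both upward, against 2.22% of all probes (1.43% upward), and at 36 h again 2, both upward, against 8.83% (5.09% upward). At 2 h these were also the 2 members whose dex and DMSO arrays did not overlap, which held for 5.89% of all probes, and at 36 h there were 3, Pdk1 besides the 2 that passed, where 26.8% of all probes did so. The median of the members' log2 changes was -0.02 at 2 h and -0.04 at 36 h, beside -0.0097 and -0.0043 for all probes. Their median size was 0.15 and 0.32, against 0.114 and 0.132.

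**Figure D1:**
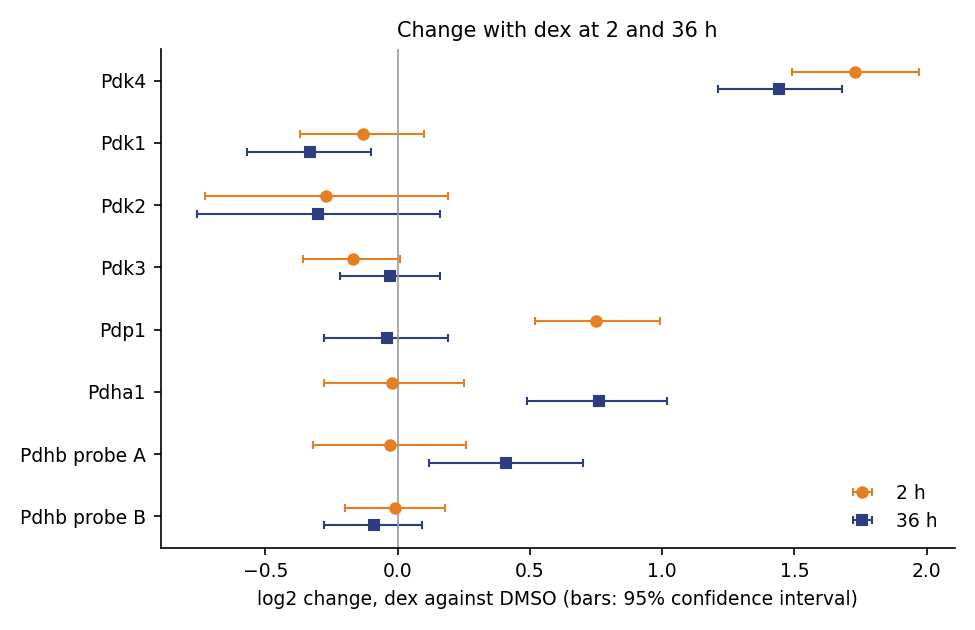
Log2 change with dex (x axis) for the 8 probes (y axis) at 2 h (circles) and 36 h (squares); bars are 95% confidence intervals of the fitted contrast, n = 4 arrays per group. Pdk4 lies farthest to the right at both times (1.73 and 1.44), Pdp1 lies at 0.75 at 2 h and -0.04 at 36 h, Pdha1 at -0.02 and 0.76, and the other 3 kinases lie below 0.

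Pdk4 was the member with the largest response. Its log2 ratios in dex 2 h replicates 1 to 4 were 0.58, 0.90, 0.72 and 0.68, and those in DMSO 2 h were -0.80, -1.12, -1.15 and -0.96. At 36 h they were 0.74, 0.81, 0.57 and 0.35 with dex and -0.90, -0.77, -0.72 and -0.91 with DMSO. All 8 dex arrays lay above the pool, between 0.35 and 0.90, and all 8 DMSO arrays below it, between -1.15 and -0.72, so treatments did not overlap at either time.

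The change of Pdk4 at 2 h was 3.31-fold (log2 1.73 ± 0.11, SE, n = 4 per group, limma adjusted p = 2.99e-07). Ordered by size among the 38467 probes, this rise was number 24 at 2 h. At 36 h Pdk4 was 2.72-fold higher (log2 1.44 ± 0.11, adjusted p = 5.17e-07), number 138 among the rises of that time. The effect at 36 h minus that at 2 h was -0.28 ± 0.16 and did not pass (95% interval -0.62 to 0.05, adjusted p = 0.461). Nor did Pdk4 pass between 2 and 36 h in DMSO (0.18 ± 0.11, adjusted p = 0.575) or in dex (-0.10 ± 0.11, adjusted p = 0.759). Group means were 0.72 ± 0.13 (SD, n = 4) in dex 2 h, -1.01 ± 0.16 in DMSO 2 h, 0.62 ± 0.20 in dex 36 h and -0.83 ± 0.09 in DMSO 36 h. Over 24 alternative fits the change ran from 1.67 to 1.86 at 2 h and from 1.38 to 1.55 at 36 h, with natural logs aside, and passed in each.

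**Figure D2:**
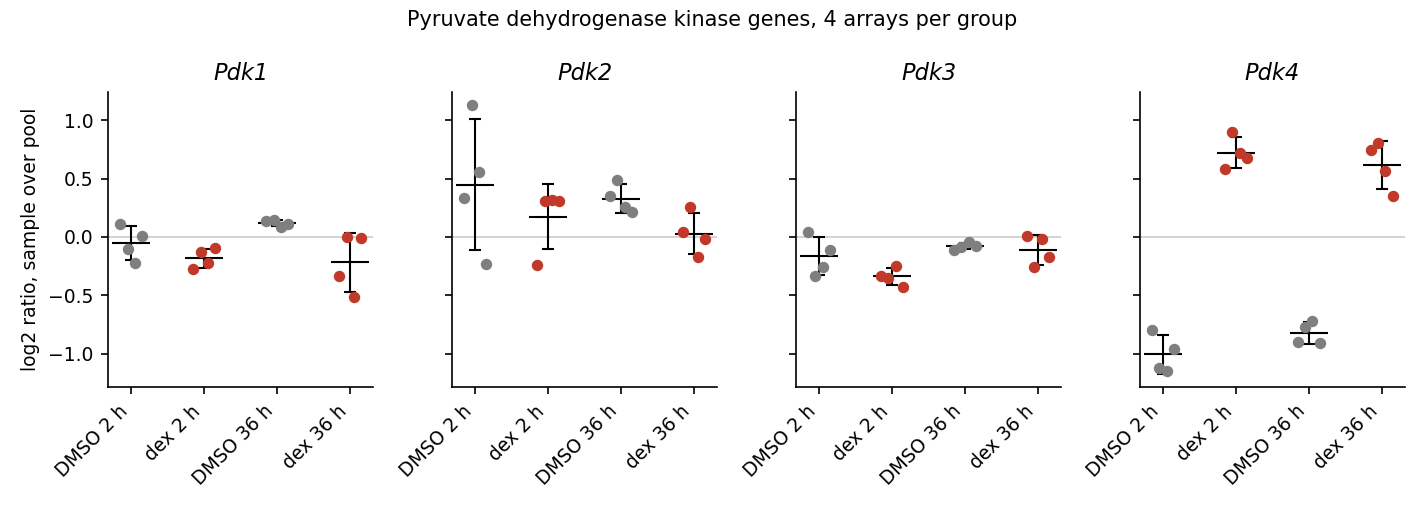
Log2 ratio of sample over pool (y axis) for the 4 kinase genes in each group (x axis); points are arrays, the bar and whiskers the mean and SD of 4. The Pdk4 arrays split into dex, at 0.35 and above, and DMSO, at -0.72 and below, while the groups of Pdk2 and Pdk3 overlap at both times.

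The other 3 kinase genes did not pass with dex at either time. Pdk1, whose product also phosphorylates a site of the alpha subunit that the other kinases leave, had ratios of -0.28, -0.13, -0.22 and -0.10 in dex 2 h and 0.11, -0.10, -0.22 and 0.0062 in DMSO 2 h. These groups overlapped, and the difference was -0.13 ± 0.11 (95% interval -0.37 to 0.10, limma adjusted p = 0.726). At 36 h Pdk1 stood at -0.34, -0.0037, -0.51 and -0.0090 with dex and at 0.14, 0.14, 0.08 and 0.11 with DMSO. Here every dex array lay below every DMSO array, by -0.33 ± 0.11 on average, yet the adjusted p was 0.0762. Such a split is common at that time, as given above for all probes. The call for Pdk1 depended on single arrays, as it passed without dex 36 h replicate 2 (adjusted p = 0.0316) or replicate 4 (adjusted p = 0.0412). It also passed with array weights (-0.39, adjusted p = 0.000425) and quantile normalization (-0.35, adjusted p = 0.0331), and without both DMSO 2 h replicates 1 and 4 (adjusted p = 0.0457). In these 3 fits 14765, 6654 and 5590 of the 38467 probes passed at 36 h, against 3396 in the main fit.

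Pdk2, the broadly expressed kinase gene, was the noisiest member. Its ratios in DMSO 2 h were 0.33, 1.13, 0.56 and -0.23, and in dex 2 h -0.24, 0.31, 0.32 and 0.31. DMSO 36 h gave 0.35, 0.49, 0.25 and 0.21, against 0.04, 0.25, -0.17 and -0.01 for dex 36 h. The wide DMSO 2 h group covered all other arrays but dex 2 h replicate 1, and the 36-hour groups overlapped between 0.21 and 0.25. Changes with dex were -0.27 ± 0.22 at 2 h (95% interval -0.73 to 0.19, limma adjusted p = 0.702) and -0.30 ± 0.22 at 36 h (-0.76 to 0.16, adjusted p = 0.496). The intervals reach from a clear fall to a small rise. Both rest on 1 variance shared by all groups, whose SDs were 0.56 in DMSO 2 h, 0.18 in dex 36 h and 0.12 in DMSO 36 h. With only the 36-hour arrays the change of -0.30 had a limma adjusted p of 0.0627, in a fit where 6985 of 38467 probes passed. With array weights the 36-hour value passed (-0.28, adjusted p = 0.04), in a fit where 14765 of 38467 probes did.

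Pdk3, a kinase gene on the X chromosome, had ratios of -0.34, -0.35, -0.25 and -0.43 in dex 2 h and of 0.04, -0.33, -0.25 and -0.11 in DMSO 2 h. In dex 36 h they were 0.0081, -0.26, -0.02 and -0.17, and in DMSO 36 h -0.11, -0.09, -0.04 and -0.08. Treatments overlapped at both times. The change with dex was -0.17 ± 0.09 at 2 h (95% interval -0.36 to 0.01, limma adjusted p = 0.514) and -0.03 ± 0.09 at 36 h (-0.22 to 0.16, adjusted p = 0.952). These intervals are the narrowest of the 4 kinases, and at both times they lie wholly below that of Pdk4.

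Within an array, Pdk4 shifted against each of the other kinases. The log2 ratio of Pdk4 minus that of Pdk2 rose with dex by 2.00 at 2 h and by 1.74 at 36 h. Against Pdk1 the shifts were 1.86 and 1.78, and against Pdk3 1.90 and 1.47. Set against Pdp1, Pdk4 shifted by 0.97 at 2 h, when both rose, and by 1.49 at 36 h. Against Pdha1 the shifts were 1.74 at 2 h and 0.69 at 36 h, when Pdha1 was higher too. In each of these 10 comparisons of 4 dex with 4 DMSO arrays the groups did not overlap, and the exact two-sided permutation p was 0.0286, the smallest that 4 against 4 can give (0.0286 after Benjamini-Hochberg over the 10). The pairs were chosen with the values known and share the Pdk4 probe, so the 10 are not independent. Pdk4 alone already split the treatments at both times, so a split of these differences was likely beforehand. Their p-values therefore add no support of their own.

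Pdp1, the phosphatase gene, rose with dex at 2 h and did not pass at 36 h. Ratios in dex 2 h were 0.53, 0.62, 0.64 and 0.41, and in DMSO 2 h 0.0062, -0.21, -0.35 and -0.27. In dex 36 h they were -0.18, 0.27, -0.18 and -0.23, and in DMSO 36 h -0.0040, -0.05, -0.04 and -0.05. All dex 2 h arrays lay above every other array of Pdp1, while at 36 h the dex arrays fell on both sides of DMSO.

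The rise of Pdp1 at 2 h was 1.69-fold (log2 0.75 ± 0.11, SE, n = 4 per group, limma adjusted p = 0.000694). Over 24 alternative fits it ran from 0.71 to 0.83, with natural logs aside, and passed in each. The highest limma adjusted p among them, 0.0142, came from the fit of only the 2-hour arrays. At 36 h the difference was -0.04 ± 0.11 (95% interval -0.28 to 0.19, adjusted p = 0.937). The change of the dex effect was tested and passed (36 h minus 2 h -0.80 ± 0.15, adjusted p = 0.01, where 2.4% of probes passed and 0.936% downward). Between 2 and 36 h Pdp1 fell in dex-treated cells by 0.63 ± 0.11 (adjusted p = 0.00833, where 1.68% of probes passed, 0.944% downward, and the groups did not overlap for 11.9%), and its value in DMSO was 0.17 ± 0.11 (adjusted p = 0.596). In a fit of only the dex arrays that fall had an adjusted p of 0.053. Dex 36 h replicate 2, at 0.27, stood apart from its group, and without it the change of the effect was -0.92 (adjusted p = 0.000733).

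**Figure D3:**
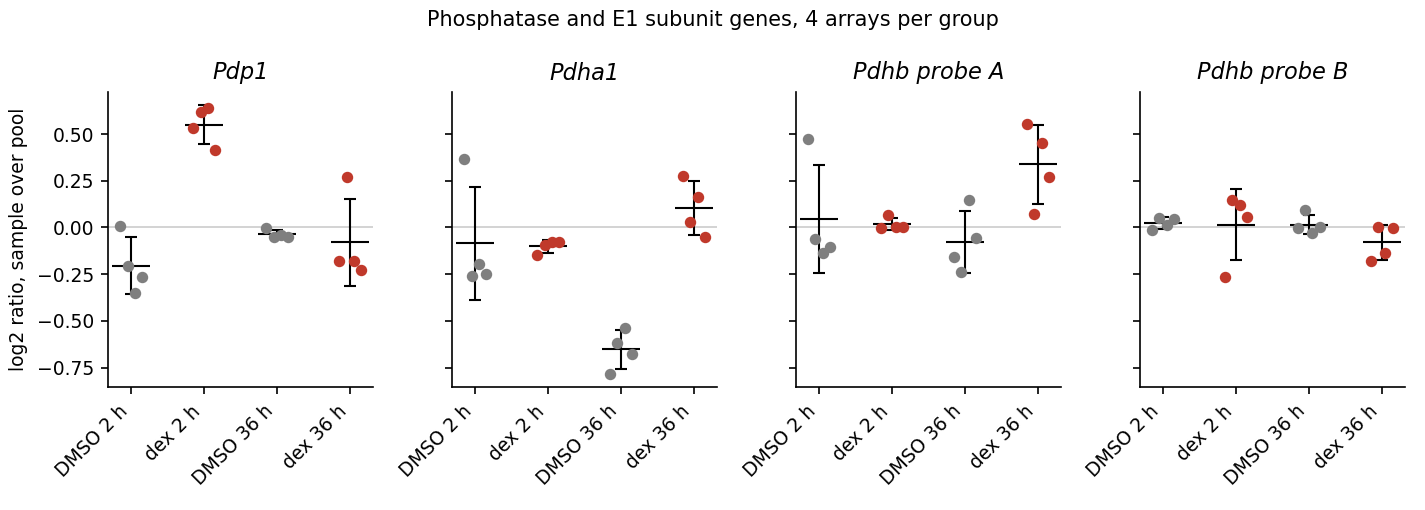
Log2 ratio of sample over pool (y axis) for Pdp1, Pdha1 and the 2 probes of Pdhb in each group (x axis); points are arrays, the bar and whiskers the mean and SD of 4. Pdp1 is high in dex 2 h alone among its groups, Pdha1 is lowest in DMSO 36 h, and in DMSO 36 h the arrays of Pdhb probe B (-0.03 to 0.09) lie within the range of probe A (-0.24 to 0.15), while in dex 36 h probe A (0.07 to 0.55) lies above probe B (-0.18 to 0.0049).

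Pdha1 encodes the subunit that carries the phosphorylation sites. Its ratios in dex 2 h were -0.15, -0.09, -0.08 and -0.08, and in DMSO 2 h 0.37, -0.26, -0.20 and -0.25. At 36 h they were 0.27, 0.03, 0.16 and -0.05 with dex and -0.78, -0.62, -0.54 and -0.68 with DMSO. DMSO 36 h was the low group, and its 4 arrays lay below the other 12. DMSO 2 h replicate 1 stood far above the rest of its group.

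At 36 h Pdha1 was 1.69-fold higher with dex (log2 0.76 ± 0.12, SE, n = 4 per group, limma adjusted p = 0.000968). At 2 h the difference was -0.02 ± 0.12 (95% interval -0.28 to 0.25, adjusted p = 0.982), or 0.14 without DMSO 2 h replicate 1 (adjusted p = 0.504). The change of the dex effect was 0.77 ± 0.18 (adjusted p = 0.0274), where 1.47% of probes passed upward. It was 0.62 without that array (adjusted p = 0.00865) and missed the threshold when any of 8 other arrays was left out (adjusted p = 0.0545 to 0.0728). These were dex 2 h replicates 1, 3 and 4, dex 36 h replicates 1 and 3, and DMSO 36 h replicates 1, 2 and 4. By the authors' rule of better than even log-odds it also missed, by a small margin (log-odds -0.09).

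Over time Pdha1 passed in the vehicle. In DMSO its ratio fell by 0.57 ± 0.12 from 2 to 36 h (limma adjusted p = 0.0462, where 0.816% of probes passed, 0.621% downward, and the groups did not overlap for 10.5%), and in dex it had a value of 0.20 ± 0.12 (adjusted p = 0.524). The fall in DMSO was close to the threshold. It passed without DMSO 2 h replicate 1 or replicate 4, and missed it when any of the other 14 arrays was left out (adjusted p = 0.0507 to 0.168) and with the replicate number as a block (adjusted p = 0.0777) or only the DMSO arrays (adjusted p = 0.219). Without both DMSO 2 h replicates 1 and 4 it was -0.43 (adjusted p = 0.0629).

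Pdhb, the partner subunit gene, was measured by 2 probes, whose difference was not tested. Probe A had -0.0020, 0.07, 0.0035 and 0.0039 in dex 2 h and 0.48, -0.06, -0.13 and -0.10 in DMSO 2 h. At 36 h it had 0.55, 0.07, 0.45 and 0.27 with dex and -0.16, -0.24, 0.15 and -0.06 with DMSO. The 36-hour groups overlapped through 1 array on each side, and the difference of 0.41 ± 0.14 did not pass (95% interval 0.12 to 0.70, limma adjusted p = 0.0755). It passed without DMSO 2 h replicate 1 (adjusted p = 0.0187), which was high for this probe as for Pdha1, and without dex 36 h replicate 2 (0.50, adjusted p = 0.0318). Fits with array weights (0.49, adjusted p = 0.000533), quantile normalization (0.43, adjusted p = 0.0313) or only the 36-hour arrays (adjusted p = 0.0411) also passed. In that order, 14765, 6654 and 6985 of the 38467 probes passed at 36 h in these fits, against 3396 in the main fit. At 2 h probe A had a difference of -0.03 ± 0.14 (adjusted p = 0.971).

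Probe B lay near the pool. Its ratios ran from -0.26 to 0.15 in dex 2 h and from -0.01 to 0.05 in DMSO 2 h, and at 36 h from -0.18 to 0.0049 with dex and from -0.03 to 0.09 with DMSO. Its changes with dex were -0.01 ± 0.09 at 2 h (limma adjusted p = 0.986) and -0.09 ± 0.09 at 36 h (95% interval -0.28 to 0.09, adjusted p = 0.649). Across the 16 arrays probes A and B correlated at r = -0.48, while probe A and Pdha1 correlated at 0.77. These values share arrays and treatment groups and describe the pattern alone. The annotation lists for probe B 1 of the transcripts listed for probe A.

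By size, the dex effects at 2 h ran from Pdk4 (1.73) and Pdp1 (0.75) through Pdhb and Pdha1, near 0, to Pdk1 (-0.13), Pdk3 (-0.17) and Pdk2 (-0.27). The intervals of all members below Pdp1 overlapped. At 36 h the order was Pdk4 (1.44), Pdha1 (0.76), Pdhb probe A (0.41), Pdk3 (-0.03), Pdp1 (-0.04), Pdhb probe B (-0.09), Pdk2 (-0.30) and Pdk1 (-0.33). Neighbours from Pdha1 downward had overlapping intervals there.

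The genes whose arrays most resembled Pdk4 were sought over 29345 probes that named 1 other gene and had all 16 values. Rhob, a small GTPase gene, and Slc39a14, a zinc transporter gene, had the highest Pearson r (0.989 each). They were followed by Zbtb16, a zinc finger transcription factor gene (0.987), Cdo1, encoding cysteine dioxygenase (0.985), the chloride channel family gene Clic4 (0.983) and Foxo3 (0.981). The probe found for each was higher with dex at both times, with log2 changes at 2 and 36 h of 2.32 and 1.69 for Rhob, 1.58 and 1.47 for Slc39a14, and 2.67 and 2.60 for Zbtb16. Cdo1 had 1.45 and 1.27, Clic4 0.76 and 0.66, and this probe of Foxo3 1.46 and 1.08. The lowest r belonged to the kinase gene Prkcd (-0.966), Ttyh2 (-0.966) and the transcription factor gene Tfap2a (-0.965). Only the probe with the most extreme r is given for a gene. Rhob had 2 probes, Slc39a14 and Tfap2a 3 each, and Clic4, Foxo3 and Ttyh2 4 each. All 16 arrays fall into dex and DMSO, so a high r mostly reflects that split.

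**Figure D4:**
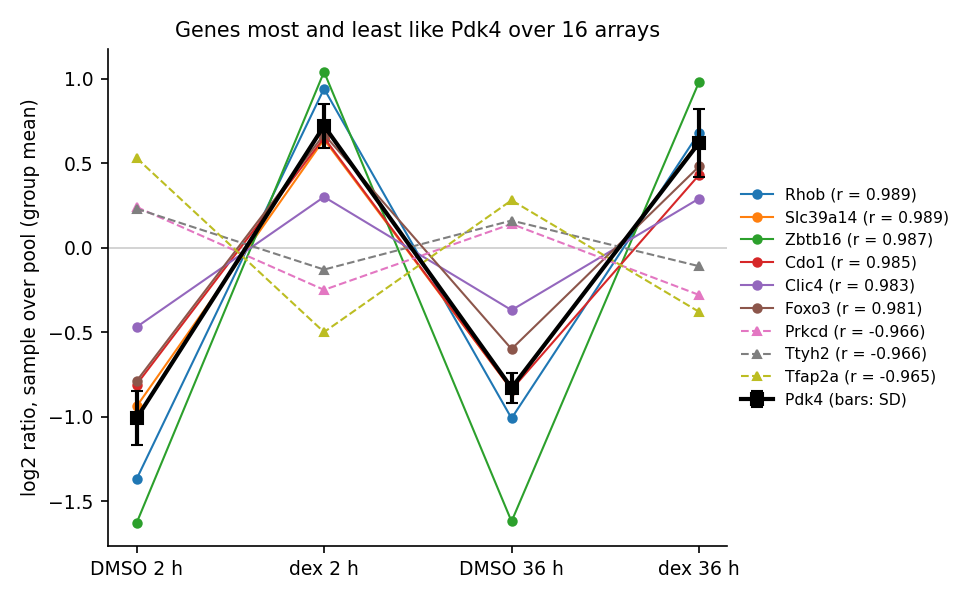
Mean log2 ratio of sample over pool (y axis) in the 4 groups (x axis) for Pdk4 (black, bars SD, n = 4 arrays) and the probes with the 6 highest (solid) and 3 lowest (dashed) Pearson r over 16 arrays. The solid lines rise from DMSO to dex at both times as Pdk4 does, with means of 1.04 for Zbtb16 and 0.30 for Clic4 in dex 2 h.

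Factors known to control the Pdk genes were looked at as a list of 16 genes, all measured. At 2 h 3 rose and 0 fell in limma (7 at an unadjusted p under 0.05), where 3.18% of 19640 genes passed by at least 1 probe and 1.97% rose, and at 36 h 7 rose and 2 fell, where 11.7% passed (9 and 3 without DMSO 2 h replicates 1 and 4). The list's median log2 change was 0.02 at 2 h and 0.30 at 36 h, beside -0.012 and -0.0012 over all genes. Foxo3, a forkhead factor that activates Pdk4, rose by 1.44 ± 0.10 at 2 h and 0.49 ± 0.10 at 36 h on the quoted probe (limma adjusted p = 4.94e-07 and 0.00569). Another of its 4 probes gave -0.08 and 0.13. Cebpb, an early adipogenic factor, rose by 1.02 ± 0.10 and 0.87 ± 0.10 (adjusted p = 1.94e-05 and 4.8e-05). Hif1a, the oxygen-regulated subunit of HIF1, rose by 0.59 ± 0.11 and 0.64 ± 0.11 on 1 of 2 probes, the other giving -0.52 and -0.37. Rxra, a nuclear receptor partner, rose at 36 h by 0.65 ± 0.11 on 1 of 2 probes, the other giving -0.35. The other rises at 36 h were Foxo1, Foxo4 and the adipogenic receptor gene Pparg, and the falls were the coactivator gene Ppargc1a and its partner Esrra. Foxo1 passed on 1 of 2 probes (the other 0.28) and Pparg on 1 of 3 (the others 0.61 and 0.29). Ppargc1a passed on 1 of 2 (the other -0.30). The glucocorticoid receptor gene Nr3c1 had values of -0.48 ± 0.12 and -0.38 ± 0.12 (limma adjusted p = 0.0568 and 0.0685), and Ppara of 0.09 ± 0.09 and 0.31 ± 0.09 (adjusted p = 0.797 and 0.051).

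Of 14 measured glucocorticoid and Foxo targets, a list picked because such genes often rise with Pdk4, 9 rose and 1 fell at 2 h and 7 rose and 0 fell at 36 h (10 at an unadjusted p under 0.05 at each time), where 3.18% and 11.7% of all genes passed. Without DMSO 2 h replicates 1 and 4 the counts at 36 h were 8 rises and 1 fall. It shares Foxo1 and Cpt1a with other lists. The fall was Angptl4, a lipase inhibitor gene. The list's median was 1.06 at 2 h and 0.62 at 36 h, with Pdk4 itself at 1.73 and 1.44. Fkbp5, a co-chaperone of the receptor, rose by 2.36 ± 0.12 and 3.11 ± 0.12, and the stress gene Ddit4 by 1.52 ± 0.13 and 2.20 ± 0.13. The glutamine synthetase gene Glul rose by 3.09 ± 0.21 and 3.84 ± 0.21. Tsc22d3 rose by 2.76 ± 0.24 and 2.43 ± 0.24 on the quoted probe, and its other 3 probes gave 1.11, 0.87 and -0.07 at 2 h and 1.01, 0.97 and 0.45 at 36 h, with the value of -0.07 not passing (limma adjusted p = 0.883). Cpt1a, the gate of fatty acid entry into mitochondria, had values of -0.04 ± 0.11 and -0.16 ± 0.11 (limma adjusted p = 0.938 and 0.447), and Igfbp1 of 0.22 ± 0.19 and -0.06 ± 0.19 (adjusted p = 0.729 and 0.958).

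Of 7 measured genes of the complex and its regulators beyond the members, 0 passed in limma at 2 h (0 at an unadjusted p under 0.05), and 1 rose at 36 h (3 unadjusted), where 11.7% of genes passed. It was Dld, the dihydrolipoamide dehydrogenase shared by several complexes (0.41 ± 0.12, adjusted p = 0.0382, other probe 0.22). Pdpr, a regulatory subunit of the phosphatase, had a value of 0.24 ± 0.08 (adjusted p = 0.0707) and Lias, which makes lipoic acid, of 0.34 ± 0.12 (adjusted p = 0.0961). With DMSO 2 h replicates 1 and 4 left out, a choice made after the data were seen, 2 of these 7 rose at 36 h.

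In 8 genes of the related 2-oxoacid dehydrogenase complexes 0 passed in limma at 2 h (1 at an unadjusted p under 0.05) and 2 rose at 36 h (3 without DMSO 2 h replicates 1 and 4), where 6.75% of all genes rose. Dlst, of the 2-oxoglutarate dehydrogenase complex, rose by 0.43 ± 0.08 (limma adjusted p = 0.00309, other probe 0.37) and Bckdha, of the branched-chain complex, by 0.62 ± 0.13 (adjusted p = 0.00877). Bckdk, the kinase of that complex and a relative of the Pdk genes, had a value of 0.33 ± 0.12 at 36 h (adjusted p = 0.109, other probe 0.24). Ppm1k, the phosphatase of that complex, had a value of 0.16 ± 0.12 at 36 h (adjusted p = 0.52, other probes -0.03 and 0.41).

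Pyruvate supply, transport and other fates gave 14 measured genes, of which 0 passed in limma at 2 h (1 at an unadjusted p under 0.05) and 4 rose at 36 h, where 6.75% of all genes rose. These were Got1 (0.40 ± 0.10), the citrate synthase gene Cs (0.40 ± 0.11), the alanine transaminase gene Gpt2 (0.35 ± 0.10) and the pyruvate carboxylase gene Pcx (0.40 ± 0.12). Their limma adjusted p were 0.0178, 0.0351, 0.0417 and 0.0434. Acly, which makes cytosolic acetyl-CoA, had a value of 0.16 ± 0.07 (adjusted p = 0.193, other probe -0.12) and Gpt of -0.31 ± 0.15 (adjusted p = 0.248).

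Fatty acid oxidation, the pathway whose use the kinases favour, had the most late rises among the metabolic lists. Of 13 measured genes 0 passed in limma at 2 h (1 at an unadjusted p under 0.05) and 6 rose and 0 fell at 36 h, where 6.75% of all genes rose. The list's median was -0.08 at 2 h and 0.31 at 36 h. Cpt2, of the carnitine shuttle, rose at 36 h by 0.86 ± 0.11 (limma adjusted p = 0.000172) on both probes. Etfa, an electron carrier of the pathway, rose by 0.67 ± 0.10 (adjusted p = 0.000307) on 2 of 3 probes. Acadl rose by 0.66 ± 0.13 on 1 of 2 probes, the other giving 0.07, and Etfdh by 0.66 ± 0.15. The other rises were Acadvl and Acadm, the latter on 1 of 2 probes, the other giving -0.03. Where 3.48% of all genes passed, the change of the dex effect passed for Cpt2 (0.75 ± 0.16, adjusted p = 0.0202), Etfa (0.82 ± 0.13, adjusted p = 0.00314) and Acadl (0.82 ± 0.19, adjusted p = 0.0283). In DMSO from 2 to 36 h Cpt2 had a value of -0.43 ± 0.11 (adjusted p = 0.116) and Etfa of -0.35 ± 0.10 (adjusted p = 0.128). Hadhb and Hadha, of the trifunctional protein, had values of 0.34 ± 0.15 (adjusted p = 0.187) and -0.13 ± 0.16 (adjusted p = 0.773) with dex at 36 h.

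Targets of HIF1, to which Pdk1 and Pdk3 are known to belong, gave 11 measured genes, with 3 rises and 0 falls at 2 h in limma (4 at an unadjusted p under 0.05) and 6 rises and 1 fall, of Slc2a1, at 36 h. Over all genes 1.97% rose at 2 h, and at 36 h 6.75% rose and 4.83% fell. Without DMSO 2 h replicates 1 and 4 there were 2 rises at 2 h. The list's median was 0.04 at 2 h and 0.65 at 36 h. Adm, encoding adrenomedullin, rose by 1.39 ± 0.10 at 2 h and 0.68 ± 0.10 at 36 h, and Ndrg1 by 0.72 ± 0.13 and 0.93 ± 0.13, its other probe giving 0.49 (limma adjusted p = 0.357) and 0.78. Car9, a carbonic anhydrase gene, had 0.36 ± 0.15 at 2 h (limma adjusted p = 0.363) and rose by 1.66 ± 0.15 at 36 h on 1 of 2 probes, the other giving -0.15. The glycolytic gene Aldoa had -0.05 ± 0.08 at 2 h (adjusted p = 0.887) and rose by 0.65 ± 0.08 at 36 h. Vegfa had -0.33 ± 0.17 and -0.29 ± 0.17 (adjusted p = 0.528 and 0.388), and Ankrd37 -0.29 ± 0.15 at both times (adjusted p = 0.507 and 0.273). Pdk1 and Pdk3 had changes of -0.13 and -0.17 at 2 h and of -0.33 and -0.03 at 36 h, none of which passed. Other rises were Egln3 at both times and Pgk1 at 36 h.

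**Figure D5:**
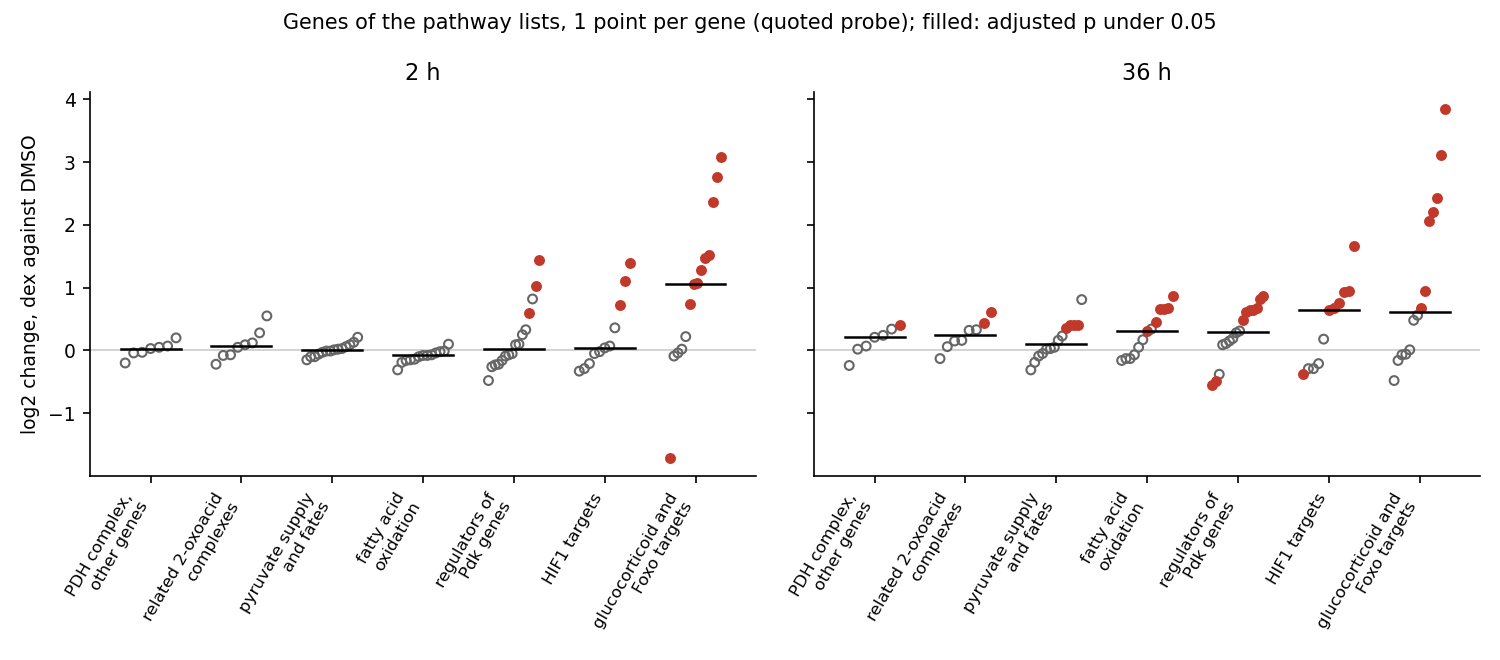
Log2 change with dex (y axis) at 2 h (left) and 36 h (right) for the genes of 7 lists (x axis), 1 point per gene by its quoted probe; filled points passed (adjusted p under 0.05) and black lines are medians. At 2 h passing genes lie in the lists of Pdk regulators, HIF1 targets and glucocorticoid targets, and at 36 h the fatty acid oxidation list has a median of 0.31.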

How the data were processed

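RNA of 3T3-L1 cells was measured on 16 arrays with 2 colours, 4 per group. The deposited values are log ratios of the Cy5 sample over the Cy3 pool, per the labels, and were used as log2. The authors fitted linear models with limma, per the design text and the submitters' processing notes. No source used here states how background was corrected or arrays were normalized, and signal over background is unknown.

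Of 38467 probes, 29456 named 1 gene, 760 several and 8251 none in the platform annotation, with symbols updated through RefSeq (28735 matched). Values were missing 131 times, on 3 arrays, and no probe was removed. limma 3.58.1 in R 4.3.3 fitted the 4 group means over all 16 arrays with no covariate and no further normalization (lmFit, eBayes), and p-values were adjusted by Benjamini-Hochberg over all probes of a comparison. Intervals are 95%. The fit was also run on simulated data, whose outcome is not given here and is not used as support. Exact permutation tests used scipy 1.17.1. A gene passed where at least 1 of its probes had an adjusted p under 0.05.

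All probes of the 7 members are reported. From each gene list, values are quoted for at most 4 passing and 2 other genes, by the smallest moderated F p of both dex comparisons and by the probe with the smallest such p. Likeness to Pdk4 took the 6 highest and 3 lowest correlations. Other genes that passed are named only to complete a count. The members and lists were chosen with earlier results of these data known. Alternatives were the replicate number as a block, only the arrays compared, array weights, quantile normalization, median centring, the authors' log-odds rule, complete probes, robust eBayes, natural logs and leaving out arrays. The labels call the replicates biological and do not say how cultures were kept apart.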

Additional observations from a re-analysis of the deposited data

Results flagged for a closer look

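Of 32 groups of 4 arrays, 5 held an array whose gap to its neighbour passed Dixon's critical value at the 95% level, where chance gives about 1 group in 20. In DMSO 2 h, replicate 1 stood above its group for Pdha1, at 0.37, and for Pdhb probe A, at 0.48, so 2 of the 5 lay on 1 array. In dex 2 h, replicate 2 stood apart for Pdhb probe A at 0.07, among arrays that otherwise spanned -0.0020 to 0.0039, and replicate 1 stood below its group for Pdk2 at -0.24. In dex 36 h, replicate 2 stood above its group for Pdp1 at 0.27.

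The dex effect differed between 36 h and 2 h, by limma's test of the difference itself, for Pdp1 (-0.80 ± 0.15, SE, adjusted p = 0.01) and for Pdha1 (0.77 ± 0.18, adjusted p = 0.0274). Of all probes 2.4% passed this test. With each of the 16 arrays left out in turn, Pdp1 kept its call every time. Pdha1 lost its call in 8 of these fits (limma adjusted p = 0.0545 to 0.0728) and also missed the authors' log-odds rule (-0.09). The dex and DMSO arrays of Pdp1 did not overlap at 2 h, which held for 5.89% of all probes. Those of Pdha1 did not overlap at 36 h, which held for 26.8%.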

How the results depend on the processing

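Over 40 member results, 1064 values were recomputed. Of these 1020 kept their direction and side of the threshold or, where not called, stayed uncalled, 27 lost a call, 17 gained one (3 of these by an unadjusted exact permutation p of 0.0286) and 0 called values reversed. Only 8 of the 40 results were called in the main fit, so only these could lose a call. The losses fell on Pdha1 in DMSO over time, the difference for Pdha1, and Pdp1 in dex over time. Values read as natural logs are the main fit rescaled and keep their calls by construction. The count of 1020 is therefore not a measure of how stable the calls are. The cause of the changes below was not tested. As reported, limma called 855 probes for dex at 2 h, 3396 for dex at 36 h, 925 for the difference of the effects, 314 for DMSO over time and 646 for dex over time.

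Fitting only the arrays compared called 374 probes at 2 h, 6985 at 36 h, 122 for DMSO over time and 349 for dex over time, with 0 members in either time comparison. Array weights called 14765 at 36 h (5 members), 2606 for the difference, 646 for DMSO over time and 5665 for dex over time (3 members). Quantile normalization called 6654 at 36 h (4 members), 2022, 1065 and 1123 in the same order. The authors' log-odds rule called 1461 at 36 h and 1 member for the difference. Without DMSO 2 h replicates 1 and 4, chosen after seeing the data, there were 5590 at 36 h (4 members), 1693 for dex over time and 0 members for DMSO over time.

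Same-numbered arrays of different groups had residual correlations of -0.103 to 0.344 over 24 pairs, with 5 over 0.1, and 6 of 16 arrays were closest to their own number, so the numbers were not taken to pair the arrays. With the replicate number as a block, 773, 2947, 723, 232 and 459 probes passed in the order above and 0 members in DMSO over time.

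Leaving out 1 array at a time gave 645 to 1075 probes at 2 h (2 members throughout), 1874 to 4599 at 36 h (2 to 4 members), 614 to 1247 for the difference (1 to 2), 156 to 683 for DMSO over time (0 to 1) and 222 to 1113 for dex over time (1 throughout). The highest counts over all probes each came without DMSO 2 h replicate 4. The lowest came without dex 2 h replicate 3 at 2 h, dex 36 h replicate 1 at 36 h and for dex over time, DMSO 36 h replicate 2 for the difference and DMSO 36 h replicate 4 for DMSO over time. Read as natural logs, the changes of Pdk4 would be 2.49 and 2.08 and that of Pdp1 at 2 h 1.09. The number and noise of the arrays limit the precision.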
